A study of Homo sapiens with 6 samples.

Results

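Amino acid transporters of 7 solute carrier families (SLC1, SLC3, SLC6, SLC7, SLC36, SLC38 and SLC43) were followed in RKO cells, a human colorectal cancer cell line, after knockdown of ANP32B. The members were all genes whose symbol starts with SLC1A, SLC3A, SLC6A, SLC7A, SLC36A, SLC38A or SLC43A followed by a number. They numbered 59 of the 61204 genes listed, and 25 of them had a mean of at least 1 FPKM (fragments scaled to transcript length and library size) over all samples. RNA sequencing covered 3 samples of cells transfected with siANP32B, labelled as ANP32B knockdown, and 3 samples transfected with the control siRNA siCtrl, labelled as ANP32B wild type. All 6 samples were of the same cell line and carried an siRNA. The study asked which genes ANP32B regulates in colorectal cancer cells. The sources used here do not say which siANP32B sequence was taken for these samples, and they give a collection time after transfection only as a general range for the study. They do not say that samples of a group were separate cultures, so the p-values cover a sample-to-sample spread that may be technical.

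Cells take up amino acids through carriers that divide the work. Sodium-coupled carriers such as those of the SLC38 and SLC1 families bring in glutamine, alanine, serine and related neutral amino acids. Exchangers then trade some of these for leucine, other essential amino acids or cystine. The leucine and cystine exchangers are pairs of a light chain of the SLC7 family and the heavy chain SLC3A2 (4F2hc or CD98), which carries the light chain to the plasma membrane. Several of these genes are known targets of ATF4, the transcription factor that is translated when uncharged tRNA activates the kinase GCN2.

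ANP32B, the targeted gene, was at 72.5, 53.9 and 75.3 FPKM in siANP32B replicates 1, 2 and 3, against 429, 466 and 452 FPKM in siCtrl replicates 1, 2 and 3. The knockdown samples thus held 15.0% of the control level (log2 fold change -2.74, standard error 0.11, adjusted p = 9.37e-07). Depth was 14577044 to 16393123 fragments per sample in siANP32B and 14304093 to 18987041 in siCtrl. In pairs of siANP32B samples, the chi-square of fragment counts per degree of freedom was 3.81 to 4.14 (1 would be sampling noise), against 3.61 for siCtrl replicates 2 and 3 and 6.77 and 7.82 for the pairs with siCtrl replicate 1, which stood apart from the other controls. Of 7 epithelial markers, 4 (EPCAM, KRT8, KRT18 and CDX2) were above 1 FPKM. KRT19 was listed at 0 in every sample, and no sample exceeded 0.0275 FPKM for CDH1 or 0.0949 FPKM for VIL1. The epithelial markers summed to 81.3 to 85.2 FPKM in siANP32B and 77.8 to 85.9 FPKM in siCtrl. Of 10 markers of fibroblasts, leukocytes and endothelium, only COL1A1 had a mean above 1 FPKM. The fibroblast markers summed to 1.15 to 2.30 FPKM in siANP32B and 3.08 to 4.27 FPKM in siCtrl, with DCN listed at 0 throughout, and their part in the results was not tested. In such bulk samples, fewer expressing cells and less RNA per cell cannot be told apart.

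The transporters at or above 1 FPKM were a small and unequal set. In siCtrl the heavy chain SLC3A2 was the most abundant (801 ± 42.4 FPKM, mean ± SD, n = 3 here and below), followed by the glutamine carriers SLC38A1 (678 ± 26.3 FPKM) and SLC38A2 (617 ± 18.0 FPKM). These 3 genes took 51.8% ± 0.485 of the summed FPKM of all 59 members in siANP32B and 58.0% ± 0.203 in siCtrl. The next level held the cationic carrier SLC7A1, the leucine exchanger SLC7A5 and the glutamine exchanger SLC1A5, between 244 and 271 FPKM in siCtrl. Of the 24 pairs of neighbours in the siCtrl order, 7 had overlapping sample values: SLC7A1 and SLC7A5, SLC7A11 and SLC38A10, SLC38A10 and SLC43A1, SLC6A6 and SLC38A9, SLC38A9 and SLC7A6, SLC7A6 and SLC36A4, and SLC1A1 and SLC7A2. The order of levels also depended on the gene length by which the values had been divided, which was inferred to be near the mean length of a gene's annotated transcripts. Rescaled to the longest annotated transcript, the siCtrl mean FPKM was 389 for SLC3A2, 188 for SLC38A1, 181 for SLC7A5 and 178 for SLC38A2. It was 135 for SLC1A5 and 106 for SLC7A1, so SLC7A5 moved to rank 3 by its mean, ahead of SLC38A2 and SLC7A1. The rescaled siCtrl values of SLC7A5 (177 to 185) overlapped those of SLC38A2 (172 to 183) and SLC38A1 (181 to 195). Ratios of FPKM between the groups do not depend on that length, whereas log2 fold changes of FPKM + 1 do so in genes of low FPKM.

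**Figure D1:**
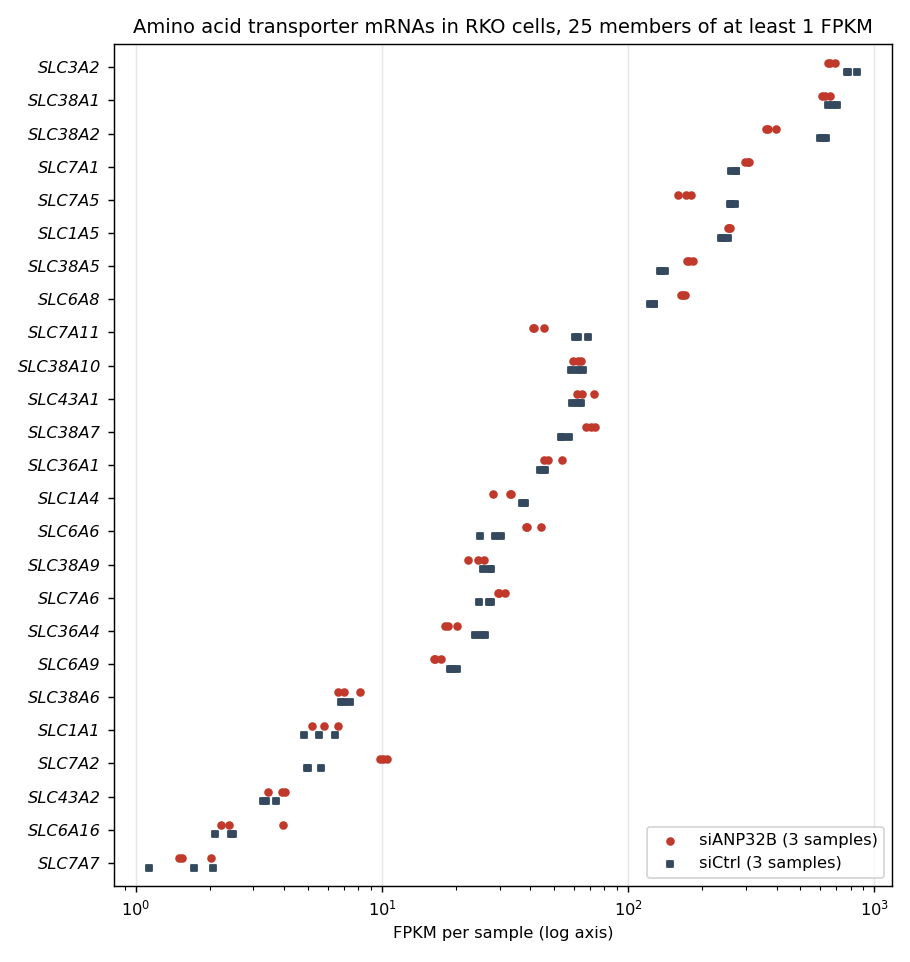
FPKM (log axis) of the 25 amino acid transporter genes averaging 1 FPKM or more, ordered from top to bottom by the siCtrl mean, with 1 point per sample (siANP32B, red circles; siCtrl, blue squares). Levels span SLC3A2, at 666 FPKM in siANP32B and 801 FPKM in siCtrl on average, to SLC7A7, at 1.68 FPKM in siANP32B and 1.63 FPKM in siCtrl. The 2 groups are apart in 15 of the 25 genes, against 51.1% of all genes tested.

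The other 34 members were silent or nearly so in both groups. Of these, 14 were listed at 0 in every sample and 20 were above 0 in at least 1 sample, with 0.274 FPKM as the highest single value. They included the renal heavy chain SLC3A1, the cystine light chain SLC7A9, the glutamate carriers SLC1A2 and SLC1A3, and 15 of the 19 SLC6 genes, among them the serotonin, dopamine and noradrenaline carriers SLC6A4, SLC6A3 and SLC6A2. The 34 genes summed to 0.666 ± 0.0819 FPKM in siANP32B and 0.928 ± 0.125 FPKM in siCtrl. A gene at 0 is below what the depth could show, since a count of 0 allows up to 3 fragments, or 1.83e-05% to 2.06e-05% of a siANP32B library and 1.58e-05% to 2.10e-05% of a siCtrl library (counting error alone). The threshold of 1 FPKM fell in a wide gap. The lowest member above it was SLC7A7 (mean 1.66 FPKM), the highest below it was SLC6A4 (0.108 FPKM), and no member passed through 1 group alone, the lowest value of any tested member in any sample being 1.13 FPKM.

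Of the 25 members tested, 7 were higher, 7 were lower and 11 were not called in siANP32B relative to siCtrl (limma on log2(FPKM + 1), Benjamini-Hochberg adjusted over 13945 genes, threshold 0.05). Among all genes tested, 39.2% were called, 14.6% higher and 24.6% lower, so the members' 56.0% (28.0% in each direction) stood above the share of all genes. The members were also more abundant than most genes, with a median level of 46.8 FPKM against 16.0 FPKM over all genes. Where the mean had to reach 5 FPKM, 52.4% of genes were called, against 14 of 22 members (63.6%). The sizes of change were like those of other genes: the median size of the log2 fold change was 0.19 for the members and 0.21 for all genes, and the signed medians were 0.06 for the members and -0.06 for all genes. The groups did not overlap in 15 members, 8 of them higher and 7 lower, against 51.1% of all genes. Median-of-ratios scaling moved the median log2 fold change of all genes to 0.00069, against -0.06 without it, and gave 8 members higher and 5 lower (61.5% of calls higher). Over all genes it made 51.1% of calls higher, against 37.1% without it. Without siCtrl replicate 1 there were 6 members higher and 5 lower, against 1744 and 2755 of 13908 genes.

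**Figure D2:**
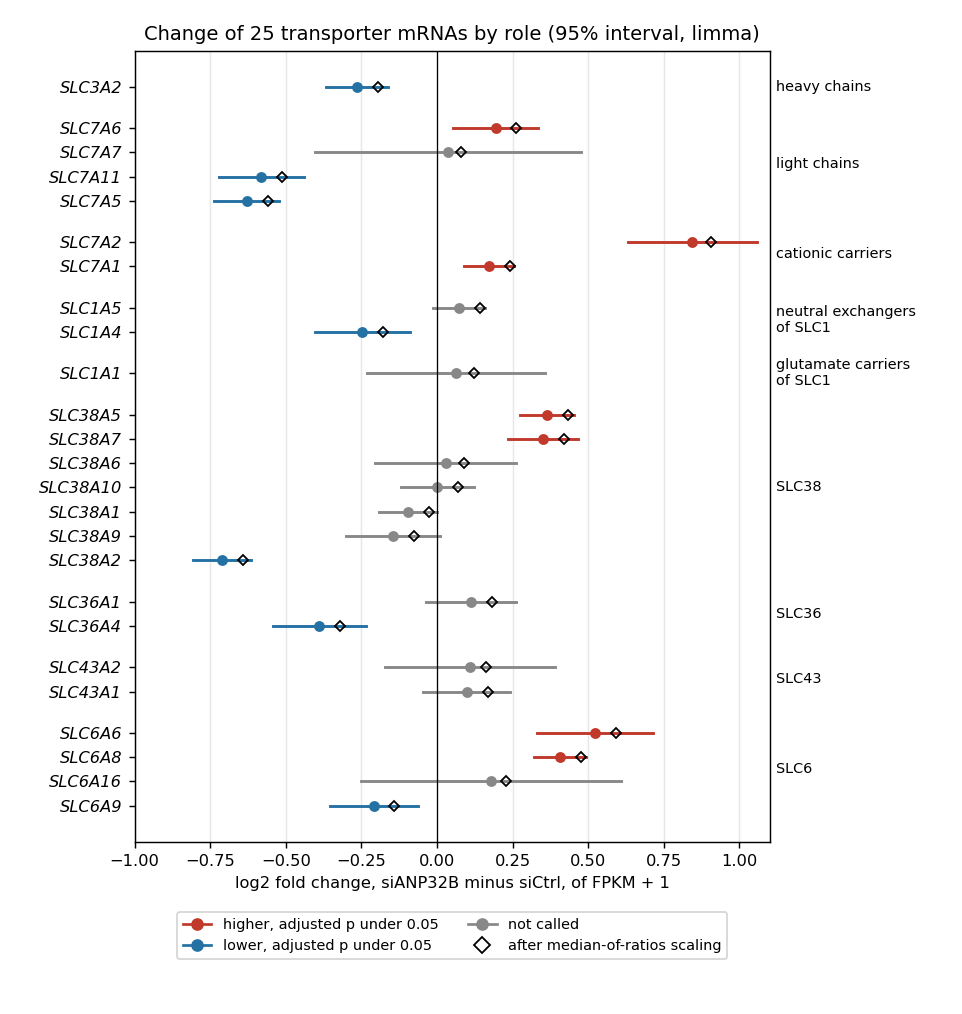
Log2 fold change (siANP32B minus siCtrl, of FPKM + 1) of the 25 tested transporters, grouped by role, with points for the limma estimate, lines for its 95% interval and open diamonds for the estimate after median-of-ratios scaling. SLC7A2 (0.84) and SLC38A2 (-0.71) mark the ends, and higher and lower genes stand side by side within the light chains, the SLC38 family and the SLC6 family.

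The heavy chain SLC3A2 and 2 of its partner light chains were lower after ANP32B knockdown. SLC3A2 (ENSG00000168003, GRCh38 chromosome 11, 62856102 to 62888875, forward strand) was at 661, 649 and 689 FPKM in siANP32B, against 771, 849.7 and 783 FPKM in siCtrl. Every knockdown sample lay below every control sample, and the mean was 1.20-fold lower (log2 fold change -0.27, standard error 0.04, adjusted p = 0.00158). SLC7A5 (LAT1), the exchanger that imports leucine and other large neutral amino acids (ENSG00000103257, chromosome 16, 87830023 to 87869488, reverse strand), was at 172, 159.8 and 179 FPKM in siANP32B and at 262, 271 and 259 FPKM in siCtrl. The groups were far apart relative to their spread, with means of 170.4 ± 9.80 FPKM in siANP32B and 264 ± 6.23 FPKM in siCtrl, a 1.55-fold decrease (log2 fold change -0.63, 95% interval -0.74 to -0.52, adjusted p = 1.95e-05). SLC7A11 (xCT), which imports cystine in exchange for glutamate (ENSG00000151012, chromosome 4, 138164097 to 138242349, reverse strand), was at 45.3, 40.8 and 41.4 FPKM in siANP32B and at 68.8, 62.5 and 60.9 FPKM in siCtrl. It was 1.51-fold lower (log2 fold change -0.58, 95% interval -0.72 to -0.44, adjusted p = 0.000129), with no overlap between the groups.

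The other light chains did not follow SLC7A5 and SLC7A11. SLC7A6 (y+LAT2), which exchanges arginine for glutamine, was at 29.6, 31.5 and 29.9 FPKM in siANP32B and at 27.1, 24.7 and 27.6 FPKM in siCtrl, with a log2 fold change of 0.19 (95% interval 0.05 to 0.33, adjusted p = 0.0351). That call was lost when siANP32B replicate 1, 2 or 3 was left out (log2 fold changes 0.21, 0.17 and 0.20), when siCtrl replicate 1 or 2 was left out (0.21 and 0.15), and with the replicate block (0.19, adjusted p = 0.0600, within a range of 0.00785 to 0.224 over the alternatives). The call was lost without a filter as well (log2 fold change 0.19, adjusted p = 0.0661), and it held in 5 of the 13 alternatives. SLC7A6 also shares 3371 exonic bases with SLC7A6OS on the opposite strand, which was at 3.68 FPKM, and whether strand was used in counting is unknown from these sources. SLC7A7 (y+LAT1) was at 1.68 ± 0.289 FPKM in siANP32B and 1.63 ± 0.469 FPKM in siCtrl, from 21 to 40 fragments per sample, and its interval of -0.40 to 0.48 leaves wide room in both directions. SLC7A8, SLC7A9, SLC7A10 and SLC7A13 were all below 1 FPKM.

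The proportions within the pair of SLC7A5 and SLC3A2 differed between the groups in every sample. The ratio of SLC7A5 to SLC3A2 FPKM was 0.261, 0.246 and 0.260 in siANP32B, against 0.340, 0.319 and 0.331 in siCtrl. The summed FPKM of the light chains that pair with SLC3A2 was 245 ± 9.86 in siANP32B and 356 ± 6.50 in siCtrl, which is 31.2% lower, while SLC3A2 itself was 16.9% lower. Within the light chain sum, SLC7A5 made up 69.5% in siANP32B and 74.1% in siCtrl, SLC7A11 17.3% in siANP32B and 18.0% in siCtrl, and SLC7A6 12.4% in siANP32B and 7.43% in siCtrl. These sums and ratios are descriptions without a test, and their absolute values depend on the gene lengths used for FPKM.

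The cationic amino acid carriers, which import arginine, lysine and ornithine without a heavy chain, were higher. SLC7A2 (CAT2; ENSG00000003989, chromosome 8, 17497088 to 17570573, forward strand) had the largest fold change among the members. It was at 10.5, 10.1 and 9.78 FPKM in siANP32B, against 5.65, 4.93 and 5.01 FPKM in siCtrl. This 1.95-fold increase (log2 fold change 0.84, 95% interval 0.63 to 1.06, adjusted p = 0.000156) rested on 408 to 992 fragments per sample. The abundant SLC7A1 (CAT1) was at 309, 299 and 307 FPKM in siANP32B and at 275, 275 and 262 FPKM in siCtrl. Its groups did not overlap, but the increase was only 1.13-fold (log2 fold change 0.17, standard error 0.04, adjusted p = 0.00502). Its call was lost with siCtrl replicate 1 as the only control (log2 fold change 0.15, adjusted p = 0.0763, the highest of the 13 alternatives, which began at 0.000390). The other 3 members of this group, SLC7A3, SLC7A4 and SLC7A14, were below 1 FPKM. With SLC7A1 higher and SLC7A5 lower, the ratio of SLC7A1 to SLC7A5 was 1.79 ± 0.0788 in siANP32B and 1.03 ± 0.0205 in siCtrl. Its absolute value depends on the gene lengths used. Rescaled to the longest transcript, the siCtrl means were 106 for SLC7A1 and 181 for SLC7A5. The rescaled siANP32B samples were at 117 to 121 for SLC7A1 and 109 to 123 for SLC7A5.

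**Figure D3:**
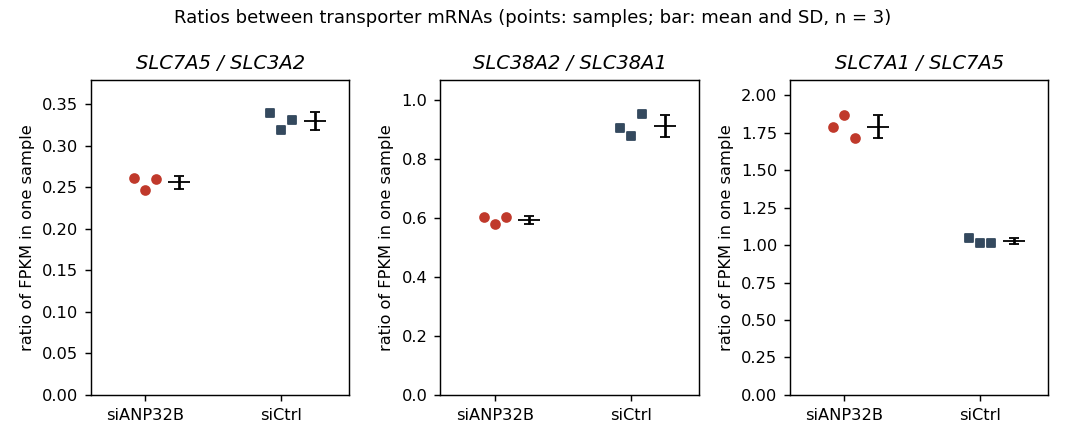
Ratio of FPKM between 2 transporter genes of the same sample, for SLC7A5 over SLC3A2, SLC38A2 over SLC38A1 and SLC7A1 over SLC7A5, with points for samples (siANP32B, red; siCtrl, blue) and bars for the mean and SD (n = 3). In siANP32B the first ratio averages 0.256, the second 0.595 and the third 1.79, against 0.330, 0.912 and 1.03 in siCtrl, and no ratio overlaps between the groups. The absolute ratios depend on the gene lengths used for FPKM.

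The SLC38 family of sodium-coupled neutral carriers was divided, with 2 of 7 tested members higher, 1 lower and 4 not called. The 42.9% called was near the 39.2% of all genes. SLC38A2 (SNAT2), which imports glutamine, alanine and serine and is known to be induced when amino acids are scarce (ENSG00000134294, chromosome 12, 46358189 to 46372867, reverse strand), was at 397, 364 and 369 FPKM in siANP32B, against 634, 598 and 619 FPKM in siCtrl. It was the member with the smallest p: the mean was 1.64-fold lower (log2 fold change -0.71, 95% interval -0.81 to -0.61, adjusted p = 6.61e-06), and the call held in all 13 alternatives with log2 fold changes of -0.75 to -0.64. SLC38A1 (SNAT1), a close relative whose gene lies 88.2 kb from SLC38A2 on chromosome 12, was at 659, 629 and 613 FPKM in siANP32B and at 702, 682 and 649 FPKM in siCtrl. These values overlapped between the groups, and SLC38A1 was not called (log2 fold change -0.10, 95% interval -0.19 to -0.00078, adjusted p = 0.103). It was called with the replicate block (-0.10, adjusted p = 0.0394) and by limma-voom on recovered fragments (-0.10, adjusted p = 0.0335), whereas median-of-ratios scaling left -0.03, within a range of adjusted p from 0.0335 to 0.681. The ratio of SLC38A2 to SLC38A1 was 0.602, 0.579 and 0.603 in siANP32B and 0.904, 0.878 and 0.953 in siCtrl, so a nearly even pair in siCtrl was uneven in siANP32B.

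A pair of other SLC38 members moved upward. SLC38A5 (SNAT5), a carrier of glutamine, serine and glycine (chromosome X, 48458537 to 48470256, reverse strand), was at 173, 176 and 182 FPKM in siANP32B and at 136, 135 and 142 FPKM in siCtrl. It was 1.29-fold higher with tight replicates (log2 fold change 0.36, standard error 0.04, adjusted p = 0.000141). SLC38A7 (SNAT7), which exports glutamine from lysosomes, was at 70.6, 73.0 and 67.6 FPKM in siANP32B and at 53.4, 57.6 and 54.0 FPKM in siCtrl. It was 1.28-fold higher (log2 fold change 0.35, standard error 0.05, adjusted p = 0.000657). The rise of SLC38A5 was smaller in FPKM than the fall of SLC38A2, and the 3 carriers SLC38A1, SLC38A2 and SLC38A5 together were at 1188 ± 36 FPKM in siANP32B and 1432 ± 34.6 FPKM in siCtrl. SLC38A9, the lysosomal arginine sensor, was at 24.3 ± 1.75 FPKM in siANP32B and 26.9 ± 1.15 FPKM in siCtrl and was not called (95% interval -0.30 to 0.01). SLC38A10 was at 62.0 FPKM in both groups (95% interval -0.12 to 0.12). SLC38A6, at 7.26 FPKM in siANP32B and 7.07 FPKM in siCtrl, had an interval of -0.20 to 0.26 and shares 245 exonic bases with TRMT5 on the opposite strand, a gene at 23.3 FPKM.

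Of the SLC1 exchangers of small neutral amino acids, SLC1A4 was lower and SLC1A5 was not called. A promoter of each holds the motif TGATGNAA (reverse complement TTNCATCA), the core of the element that C/EBP and ATF4 proteins bind together. That promoter is among 2 listed for SLC1A4 and 3 for SLC1A5, and the others lack the motif. These sites are shown because in these 2 tested members the motif lies before a start or ends on it. The windows come from RefSeq on GRCh38.p14, 5′ to 3′ on the strand of the gene, at chr2:64989370-64989399 (forward strand) for SLC1A4 and chr19:46784893-46784922 (reverse strand) for SLC1A5, with the motif in capitals.
SLC1A4: cgtccgcgttcgcggctcccgtTTGCATCA
SLC1A5: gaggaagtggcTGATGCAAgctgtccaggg
The motif ends at an annotated start of SLC1A4 and begins 97 bases upstream of one of SLC1A5. Both starts lie inside the gene, whose 5′ end in GENCODE 29 is at 64988477 for SLC1A4 and at 46788594 for SLC1A5. SLC1A4 (ASCT1), a carrier of alanine, serine, cysteine and threonine, was at 33.0, 28.2 and 33.5 FPKM in siANP32B and at 37.7, 36.9 and 38 FPKM in siCtrl. It was 1.19-fold lower (log2 fold change -0.25, 95% interval -0.40 to -0.09, adjusted p = 0.0208), and the call was fragile. It was lost without siANP32B replicate 2 (-0.17), siCtrl replicate 1 (-0.24) or siCtrl replicate 3 (-0.24), and with median-of-ratios scaling (-0.18, adjusted p = 0.0666, within a range of 0.00206 to 0.151 over the alternatives). The SLC1A4 call was also lost without a filter (log2 fold change -0.25, adjusted p = 0.0612), and it held in 7 of the 13 alternatives. SLC1A5 (ASCT2), the main glutamine exchanger of many tumour cells, was at 256, 253.3 and 259 FPKM in siANP32B and at 237, 253.2 and 241 FPKM in siCtrl. The groups nearly touched, and the gene was not called (log2 fold change 0.07, 95% interval -0.01 to 0.16, adjusted p = 0.163), except with median-of-ratios scaling (0.14, adjusted p = 0.0277, the lowest of a range up to 0.365). SLC1A1 (EAAT3), the single glutamate carrier above 1 FPKM, was at 5.87 ± 0.723 FPKM in siANP32B and 5.59 ± 0.808 FPKM in siCtrl (95% interval -0.23 to 0.36).

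In the SLC6 family, which also carries neurotransmitters, osmolytes and creatine, 4 of 19 members were tested, and 2 were higher, 1 lower and 1 not called. The 75.0% called, against 39.2% of all genes, rests on these 4 genes alone and does not describe the family. SLC6A8, the creatine carrier (chromosome X, 153688099 to 153696593, forward strand), was at 170.0, 164 and 167 FPKM in siANP32B, against 127, 122 and 128 FPKM in siCtrl. It was 1.33-fold higher, with little spread in either group (log2 fold change 0.41, standard error 0.04, adjusted p = 5.81e-05). SLC6A6, the taurine carrier, was at 38.5, 44.4 and 38.8 FPKM in siANP32B and at 30.4, 28.6 and 24.9 FPKM in siCtrl. It was 1.45-fold higher (log2 fold change 0.52, 95% interval 0.33 to 0.71, adjusted p = 0.00121) and was called in all 13 alternatives. SLC6A9 (GLYT1), the glycine carrier, was at 17.3, 16.4 and 16.2 FPKM in siANP32B and at 18.9, 19.2 and 20.1 FPKM in siCtrl. It was lower (log2 fold change -0.21, 95% interval -0.36 to -0.06, adjusted p = 0.0289), without overlap, but the call was lost when siANP32B replicate 2 or 3 (-0.20 and -0.19) or siCtrl replicate 1, 2 or 3 (-0.23, -0.22 and -0.18) was left out, with the replicate block (-0.21, adjusted p = 0.0529) and with median-of-ratios scaling (-0.14, adjusted p = 0.108, within a range of 0.0271 to 0.252). SLC6A9 also shares 404 exonic bases with CCDC24 on the opposite strand, which was at 4.83 FPKM. SLC6A16, an orphan member, was at 2.85 ± 0.967 FPKM in siANP32B and 2.34 ± 0.215 FPKM in siCtrl and had the widest relative spread of the tested members in siANP32B, with 2.21, 3.96 and 2.38 FPKM.

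The remaining members belong to the SLC36 and SLC43 families. SLC36A4 (PAT4), a carrier of proline and tryptophan, was at 20.1, 18.0 and 18.6 FPKM in siANP32B and at 26.2, 25.2 and 23.8 FPKM in siCtrl. It was 1.33-fold lower (log2 fold change -0.39, standard error 0.07, adjusted p = 0.00187). SLC36A1 (PAT1), which exports amino acids from lysosomes together with protons, was at 48.7 ± 4.33 FPKM in siANP32B and 44.9 ± 0.949 FPKM in siCtrl and was not called (95% interval -0.04 to 0.26). The uniporters of large neutral amino acids SLC43A1 (LAT3) and SLC43A2 (LAT4) were not called either. SLC43A1 was at 66.5 ± 5.49 FPKM in siANP32B and 62.0 ± 2.54 FPKM in siCtrl (95% interval -0.05 to 0.24), and SLC43A2 was at 3.80 ± 0.310 FPKM in siANP32B and 3.45 ± 0.231 FPKM in siCtrl (-0.17 to 0.39). All 59 members summed to 3281, 3181 and 3249 FPKM in siANP32B, against 3635, 3660 and 3550.1 FPKM in siCtrl. That total was 10.5% lower in siANP32B, and all 3 knockdown samples lay below the controls. It was taken without median-of-ratios scaling, which raises siANP32B values relative to siCtrl and would make the difference smaller. The total also rests mainly on the most abundant members, such as SLC38A2, which averaged 377 FPKM in siANP32B and 617 FPKM in siCtrl. With 7 tested members called higher and 7 lower, it does not describe a general decrease.

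Carriers known to respond to ATF4 were mostly lower. Of 9 such carriers, all members described above, 8 were tested: 6 were lower (SLC38A2, SLC7A5, SLC7A11, SLC3A2, SLC1A4 and SLC6A9), 1 was higher (SLC7A1) and 1 was not called (SLC1A5), with a median log2 fold change of -0.26 against -0.06 over all genes. That is 75.0% lower and 12.5% higher, against 24.6% and 14.6% of all genes. At a mean of at least 5 FPKM, 6 of 8 were lower and 1 higher, against 3225 and 2031 of 10030 genes. With median-of-ratios scaling 4 of the carriers were lower and 2 higher. These genes were chosen with their values known, so the count is a description. The motif TGATGNAA was in 5 of 38 RefSeq promoter windows of the tested members, counted on both strands of windows that span 250 bases before to 50 bases after a start (13.2%), and in 1270 of 35116 windows of all genes (3.62%). Members below 1 FPKM were left out of the members' share, while the windows of all genes had no such filter. These shares are thus over unlike sets, and their difference was not tested. Tested members with the motif did not share a direction: 2 were lower (SLC1A4 and SLC3A2), 1 was higher (SLC7A1) and 2 were not called (SLC1A5 and SLC38A1). The table matched 22 of the 25 tested members and lacked SLC7A2, SLC7A11 and SLC6A6.

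Other genes of the amino acid response were mostly lower, while ATF4 mRNA was not called. Of 15 genes of GCN2 signalling and the ATF4 response, 14 were tested, 8 were lower and 2 higher, with a median of -0.43. That is 57.1% lower and 14.3% higher, against 24.6% and 14.6% of all genes. At a mean of at least 5 FPKM, 10 of the 14 were lower and 2 higher, against 3225 and 2031 of 10030 genes. This list too was chosen with earlier results of these data known, so the count is a description. ATF4 itself was at 414, 422 and 415 FPKM in siANP32B and at 411, 427 and 419 FPKM in siCtrl (log2 fold change -0.01, 95% interval -0.08 to 0.07, adjusted p = 0.885). CEBPG, a bZIP partner of ATF4, was at 51.3, 49.2 and 51.8 FPKM in siANP32B and at 83.3, 81.8 and 85.4 FPKM in siCtrl, which is 1.64-fold lower. The pseudokinase gene TRIB3 was 1.57-fold lower, at 168 ± 14.1 FPKM in siANP32B and 264 ± 17.7 FPKM in siCtrl, and DDIT4, an inhibitor of mTORC1, was 1.93-fold lower, at 16.7 ± 2.88 FPKM in siANP32B and 32.2 ± 1.15 FPKM in siCtrl. The 2 higher genes act before and after ATF4: GCN1, an activator of GCN2, was at 278 ± 5.19 FPKM in siANP32B and 246 ± 4.30 FPKM in siCtrl, and PPP1R15A, which reverses eIF2 phosphorylation, was at 786 ± 11.0 FPKM in siANP32B and 681 ± 45.1 FPKM in siCtrl.

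**Figure D4:**
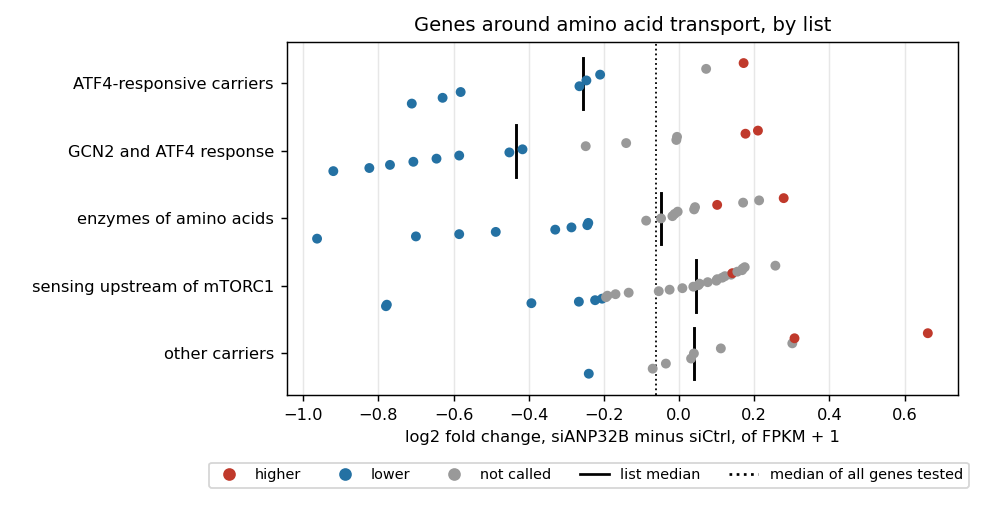
Log2 fold change (siANP32B minus siCtrl, of FPKM + 1) of each tested gene in 5 lists around amino acid transport, with red points for higher, blue for lower and grey for genes not called, a bar for the list's median and a dotted line for the median of all genes tested. The medians are -0.26 for ATF4-responsive carriers, -0.43 for the GCN2 and ATF4 response and -0.05 for enzymes. They are 0.04 for sensing upstream of mTORC1, a list that includes subunits of mTORC1, and for other carriers.

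Enzymes that use or make amino acids were mixed, and a lower gene of their list is also counted in the GCN2 and ATF4 list. Of 22 listed, 19 were tested, 8 were lower and 2 were higher, with a median of -0.05. That is 42.1% lower and 10.5% higher, against 24.6% and 14.6% of all genes, whose median was -0.06. At a mean of at least 5 FPKM, 8 of 18 were lower and 3 higher, against 3225 and 2031 of 10030 genes. The lower enzymes included PSAT1 of serine synthesis, at 151, 137 and 151 FPKM in siANP32B and 287, 285 and 286 FPKM in siCtrl (1.95-fold lower). They also included GCLM, the modifier subunit of the enzyme that joins glutamate and cysteine in glutathione synthesis, at 15.9 ± 1.19 FPKM in siANP32B and 26.5 ± 2.14 FPKM in siCtrl, and PHGDH, the first enzyme of serine synthesis, at 116 ± 4.61 FPKM in siANP32B and 146 ± 1.42 FPKM in siCtrl. GCLM and the cystine carrier SLC7A11 were thus both lower. The higher enzymes were BCAT2, which transaminates branched-chain amino acids in mitochondria, at 62.4 ± 1.92 FPKM in siANP32B and 51.3 ± 3.73 FPKM in siCtrl, and SHMT2, which splits serine in mitochondria, at 462 ± 3.68 FPKM in siANP32B and 430.4 ± 13.1 FPKM in siCtrl. The number of higher enzymes was 1 when siANP32B replicate 1, 2 or 3 or siCtrl replicate 1 or 3 was left out, and 3 without siCtrl replicate 2.

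A list of 32 genes covered amino acid sensing upstream of mTORC1 and subunits of mTORC1 itself. Of these, 28 were tested, 6 were lower, 1 was higher and 21 were not called, with a median of 0.04. The lower share of 21.4% was near the 24.6% of all genes, and the 25% called in either direction was under their 39.2%, so the counts do not set this list apart. The lower genes included both tested sestrins, which hold back mTORC1 when leucine is short. SESN1 was at 3.88, 4.42 and 3.91 FPKM in siANP32B and at 8.08, 8.27 and 6.83 FPKM in siCtrl, and SESN2 was at 24.1, 20.5 and 26.0 FPKM in siANP32B and at 35.2, 49.0 and 39.5 FPKM in siCtrl. SESN1 was 1.90-fold lower (adjusted p = 0.000671) and SESN2 1.75-fold lower (adjusted p = 0.00102). FNIP1, a partner of folliculin, was 1.32-fold lower. The single higher gene was LAMTOR1, an anchor of the Ragulator complex on lysosomes, at 107 ± 0.904 FPKM in siANP32B and 96.7 ± 3.28 FPKM in siCtrl. The direction of this list depended on scaling, with 8 genes higher and 4 lower after median-of-ratios scaling. Without siANP32B replicate 1, siANP32B replicate 2 or siCtrl replicate 1, 0 genes were higher by limma, with 3, 4 and 6 genes in that order at an unadjusted p under 0.05. Without siANP32B replicate 3 there were 3 higher genes, without siCtrl replicate 2 there were 2, and limma-voom on all samples gave 4.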

How the data were processed

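The data were 1 table of deposited FPKM values per sample, for 6 samples. According to the processing notes of the submitters, the tools were Bowtie2, RSEM and DESeq2 and the build was GRCh38. The sources used here give no versions, annotation or use of strand, and the labels and the paper's methods name different RNA extraction reagents, with an MGI library kit in the labels and an Illumina sequencer in the methods. The unit was inferred: times 1 whole length per gene, the values of all 13945 tested genes were whole multiples of 1 number per sample (tolerance 0.002). Whole multiples of the smallest fitting length can also fit, and the multiple nearest the mean GENCODE 29 transcript length was taken. Closeness to that mean is thus partly built in. The length taken was within 5% of the mean for 24 of the 25 tested members and 11263 of 13659 genes compared. Dividing by such a mean raises the level of genes with many short transcripts.

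limma 3.58.1 with trend (R 4.3.3) was fitted on log2(FPKM + 1), keeping the 13945 genes that averaged 1 FPKM or more, so fold changes understate low genes; the ratios given are of mean FPKM. Benjamini-Hochberg adjustment was over all genes, with a threshold of 0.05. Tables and figures used Python 3.11.15, matplotlib 3.10.9, scipy 1.17.1, pandas 2.3.3 and numpy 2.4.6. The fit was tried on simulated data in which 200 of 13945 genes were changed. It recovered 13.5% of 1.25-fold, 55% of 1.5-fold and 83% of 2-fold changes, so a gene not called may still differ by such amounts. In the data 5468 genes were called, so these shares need not hold there. The 13 alternatives were a pseudocount of 0.1, no filter, a minimum of 5 FPKM, median-of-ratios scaling, a replicate block, each of the 6 samples left out, siCtrl replicate 1 as the only control, and limma-voom on recovered fragments. The design allowed for counts, but the files held FPKM. Members and lists were chosen with earlier results of these data known. Named genes were any member of at least 1 FPKM, members below it as such, ANP32B, ATF4, and up to 3 called genes per direction and list with the smallest p. Coordinates are of GENCODE 29 on GRCh38. The pseudogenes SLC7A5P1, SLC7A5P2 and SLC6A10P were listed at 0 in all samples. A permutation of 3 against 3 samples cannot give p below 0.10.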

Additional observations from a re-analysis of the deposited data

How the results depend on the processing

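Of the 14 called members, 10 were called in all 13 alternatives, and the numbers of members higher and lower were 5 to 8 each. With siCtrl replicate 1 as the only control (its own spread being taken as that among siANP32B samples), 1247 genes were higher and 1953 lower, with 5 and 5 members. There the lists had 0 ATF4-responsive carriers higher by limma (1 at an unadjusted p under 0.05), 1 gene of the GCN2 and ATF4 response higher, 1 enzyme higher and 5 lower, 0 sensing genes higher (3 unadjusted) and 2 lower, and 1 other carrier higher and 0 lower (0 unadjusted). Sensing genes that were higher numbered 3 at a minimum of 5 FPKM, 8 with median-of-ratios scaling, 2 with the replicate block and 4 with limma-voom. Without a filter 1 enzyme was higher, and with median-of-ratios scaling 2 ATF4-responsive carriers were. Leaving out 1 sample gave 0 to 3 sensing genes higher, 1 to 3 enzymes higher and 0 to 1 other carriers lower. Signs turned only in uncalled members. With 1 sample left out, log2 fold changes ranged from -0.038 to 0.037 for SLC38A10, from -0.018 to 0.30 for SLC6A16, from -0.048 to 0.085 for SLC38A6, from -0.024 to 0.15 for SLC1A1 and from -0.11 to 0.15 for SLC7A7. With siCtrl replicate 1 alone they were -0.071 for SLC38A10, -0.12 for SLC1A1 and -0.025 for SLC7A7, and limma-voom gave -0.0021 for SLC38A10. The cause was not tested.

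Same-numbered samples did not deviate together (correlations 0.02, -0.01 and -0.00), and not every sample correlated best with its own number, so the numbers were not taken as a pairing. With the replicate block, 6 members were higher and 7 lower, against 2006 and 3310 of all genes. Depth limits SLC7A7 and SLC6A16 most, with 21 to 40 and 38 to 80 fragments per sample.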

Other observations

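Other carriers of amino acids and peptides, outside the 7 families, were mostly not called. Of 11 listed, 9 were tested, and 2 were higher, 1 lower and 6 not called, with a median log2 fold change of 0.04. The 33.3% called was under the 39.2% of all genes. The largest difference was in SFXN2, a sideroflexin of the mitochondrial membrane, which was at 18.6, 16.4 and 20.9 FPKM in siANP32B and at 12.1, 11.4 and 10.6 FPKM in siCtrl (1.64-fold higher, log2 fold change 0.66, standard error 0.10, adjusted p = 0.000693, limma). SFXN3, a mitochondrial serine carrier of the same family, was at 53.2 ± 3.10 FPKM in siANP32B and 42.9 ± 3.07 FPKM in siCtrl (1.24-fold higher, adjusted p = 0.00585). SLC15A4, a lysosomal carrier of histidine and peptides, was at 19.8 ± 0.812 FPKM in siANP32B and 23.5 ± 0.729 FPKM in siCtrl (1.19-fold lower, adjusted p = 0.0136), and was not called without siCtrl replicate 3, where its unadjusted p was still under 0.05.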
